A study of Mus musculus with 6 samples.

Results

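RNA levels of 10 genes that read, write and remove DNA methylation were followed in hematopoietic stem cells (HSCs) with and without CD74, the MHC class II invariant chain, which also acts as a receptor for the cytokine MIF. The genes were taken by symbol, 1 row each, from the 19846 genes of the deposited table: Mbd2, Mbd1 and Mbd3, the writers Dnmt3a, Dnmt3b and Dnmt1, the Dnmt1 recruiter Uhrf1, and Tet1, Tet2 and Tet3. The HSCs were CD34-/LSK cells (lineage-negative, Sca-1+ and c-Kit+) sorted from the bone marrow of untreated C57BL/6 mice of 6 to 8 weeks: 3 libraries from CD74-/- mice, which lack CD74 in every tissue, and 3 from WT mice. Each library was made from 1000 cells. As many mice as libraries are named for each genotype, with no word on pooling or on littermates, so p-values measure the spread between these libraries. All values are normalized counts, reads per gene divided by a size factor for the library.

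DNA methylation is placed on cytosines of CpG sites, often at promoters and repeats, and is linked to silencing. DNMT3A and DNMT3B add it to unmethylated DNA, DNMT1 copies it to the new strand after replication at sites that UHRF1 marks, and the TET enzymes oxidize it, which starts its removal. Proteins with a methyl-CpG binding domain (MBD) read it. In blood stem cells DNMT3A and TET2 are known for their loss in clonal hematopoiesis, and DNMT1 for its need in self-renewal.

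No gene of the 10 differed between the genotypes by the test across all genes. By limma on log2(normalized count + 1), 0 of the 10 had an adjusted p under 0.05 (0 by edgeR, DESeq2 and limma-voom on the recovered reads), where 0.0873% of the 14892 genes tested did by limma and 0.756% of 19589 genes by DESeq2. At an unadjusted p under 0.05 the count was 0 as well, beside 4.6% of all genes for lower and 3.14% for higher in CD74-/- HSCs. The 3 CD74-/- libraries overlapped the 3 WT libraries for each of the 10 genes, while 7.47% of all genes lay without overlap below WT and 5.35% above it. The fold changes of 9 of the 10 were negative, with a median log2 fold change of -0.17, beside 52.3% negative and a median of -0.03 over all genes tested. This count rests on single libraries: without CD74-/- replicate 2 it was 5 of 10 with a median of -0.08, and without CD74-/- replicate 3 it was 9 of 10 with a median of -0.49 (exon length and GC trends removed, an alternative chosen after seeing the data, 5 of 10 with a median of -0.09). All 10 passed the minimum of 10 normalized counts on average.

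**Figure D1:**
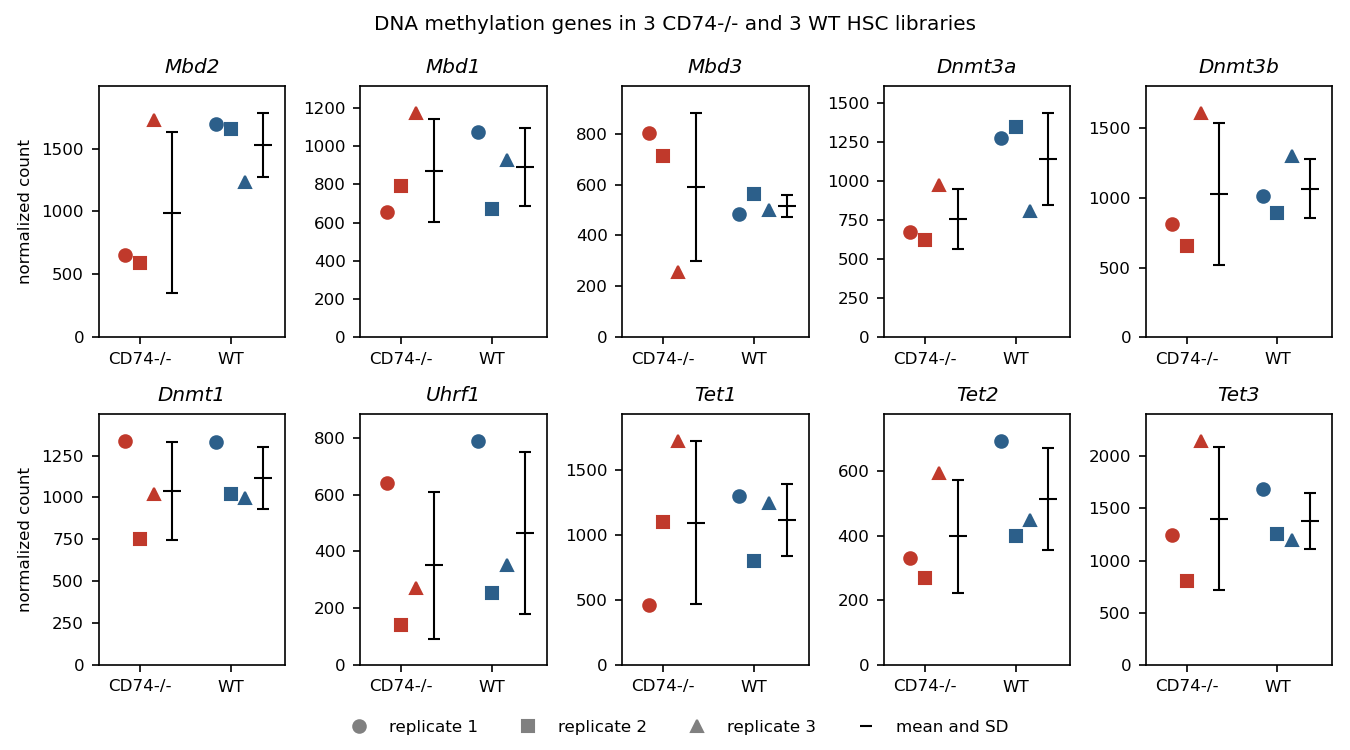
Normalized counts (vertical axes, from 0) of the 10 genes in each CD74-/- (red, left) and WT (blue, right) library, with a marker for each replicate and the mean and SD beside them. The genotypes overlap in every panel, and CD74-/- replicate 3 is the highest of the 6 libraries for Mbd2, Mbd1, Dnmt3b, Tet1 and Tet3 and the lowest for Mbd3.

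The libraries held 14390534 to 16198678 reads in genes for CD74-/- and 14543781 to 16093212 for WT. Counting error alone was at most 8.48% for any of the 10 genes in any library. Cd74 itself had 46.0, 72.0 and 72.8 normalized counts in CD74-/- libraries, against 3287, 2459 and 3107 in WT libraries, which matches the labels. Markers of LSK cells and stem cells (Kit, Ly6a, Procr, Mecom, Hlf) were present in all 6 libraries. Of the 16 listed markers of this kind, 0 were called by limma and 11 had negative fold changes (median log2 fold change -0.19). The list also holds Flt3, Cd48 and Cd34, whose log2 fold changes were positive (0.42, 0.86 and 0.59). The median thus joins genes of both directions. Flt3, also listed, had 3541, 3006 and 3754.5 normalized counts in CD74-/- libraries, against 2853, 2784 and 2097 in WT libraries. It lay above WT without overlap, as did 5.35% of all genes. Cd48 had 13489.5, 8072 and 4460.5 in CD74-/- libraries, against 4339, 5091 and 3658 in WT libraries. Cd34, whose protein was absent from the sorted surface, had 11830.4, 9672 and 7097 normalized counts in CD74-/- libraries, against 6611, 6834 and 5240.5 in WT libraries. Cd34 too lay above WT without overlap, beside the same 5.35% of all genes. Genes of other blood cells were also present, most of them with negative fold changes, with a median log2 fold change of -3.00 among erythroid markers, -4.12 among B cell markers, -1.77 among monocyte and macrophage markers and -2.58 among neutrophil markers. The fall was not uniform: the median was -1.08 among dendritic cell markers (8 of 12 negative) and -0.13 among T and NK cell markers (6 of 11 negative). An adjusted p under 0.05 was found for 1 B cell, 0 neutrophil, 2 erythroid and 0 monocyte and macrophage markers by limma and for 3, 2, 6 and 0 by DESeq2. The summed level of 15 B cell markers ranged from 1798 to 4513 in CD74-/- libraries and from 4057 to 12620.0 in WT libraries (14 of 15 with a negative fold change). That of 15 neutrophil markers ranged from 38790.0 to 159700.0 in CD74-/- libraries and from 170600.0 to 1006000.0 in WT libraries (14 of 15). That of 15 erythroid markers ranged from 26030.0 to 39730.0 in CD74-/- libraries and from 39860.0 to 60850.0 in WT libraries (12 of the 14 tested), and that of 13 monocyte and macrophage markers from 9680.0 to 39810.0 in CD74-/- and from 29860.0 to 51790.0 in WT libraries (12 of 13). A few abundant genes carry such sums: Car2 alone had 22933 to 37613 normalized counts in CD74-/- libraries and 20042 to 27332 in WT libraries within the erythroid sum. No marker of the B cell, neutrophil, erythroid or monocyte and macrophage lists was at 0 in all libraries of a genotype. Their part in the values below was not tested, and fewer cells of a type cannot be told apart from less RNA per cell in bulk libraries.

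CD74-/- replicate 3 stood apart from the other CD74-/- libraries. Among the 8487 genes averaging at least 200 normalized counts, 19.7% differed by more than 1 log2 unit from the mean of the other 2 CD74-/- libraries, against 3.36% to 8.25% for the other 5 libraries within their genotypes. The difference ran with exon length, with a median of -0.53 (log2) for genes of up to 2.37 kb of exon and of 0.42 for genes over 4.34 kb. Fold changes of the 10 genes are therefore given with and without this library, and those of some other genes likewise. Without it 18.7% of all genes lay below WT without overlap.

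Mbd2 encodes the reader that recruits the NuRD repressor complex to methylated CpG sites. The gene (ENSMUSG00000024513) lies on chromosome 18 at 70568189 to 70626131 (GRCm38, plus strand), 9.76 Mb beyond Cd74. It had 655, 592 and 1727 normalized counts in CD74-/- libraries, against 1699.5, 1653 and 1236 in WT libraries. CD74-/- replicates 1 and 2 were below all WT libraries, and replicate 3 was the highest of the 6. The log2 fold change was -0.79 ± 0.39 (SE, n = 3 each), with a 95% interval of -1.65 to 0.07 and an adjusted p of 0.668 by limma. The two-sided exact permutation test gave a p of 0.4, where 0.1 is the smallest that 3 against 3 libraries allow. The interval thus included a level in CD74-/- of 0.318 to 1.05 times that of WT.

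Without CD74-/- replicate 3, Mbd2 had a log2 fold change of -1.28 and an unadjusted p of 0.000458 by limma, with an adjusted p of 0.0845 over all genes, and the same 2 CD74-/- libraries lay below all 3 WT libraries, as did those of 18.7% of all genes in that comparison. Over all 18 settings tried the log2 fold change of Mbd2 ran from -1.28 to -0.51 and the adjusted p from 0.0845 to 0.982. Removing the trend with exon length from each library, an alternative chosen after seeing the data, left Mbd2 at 622, 571 and 1817 in CD74-/- libraries, against 1733, 1659 and 1253 in WT libraries. Genes of the length of Mbd2 (2.45 kb of exon) differed little in this library (median 0.06 for exons between 2.37 and 4.34 kb), so that this removal could move its value little.

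Mbd1, another reader of methylated CpG, which works with the histone methyltransferase SETDB1, lies beyond Mbd2 on the same chromosome (74267605 to 74282732, 13.45 Mb from Cd74). It had 653, 789.8 and 1174 normalized counts in CD74-/- libraries, against 1073, 673 and 926 in WT libraries. The groups covered nearly the same range, and the log2 fold change was -0.05, with a 95% interval of -0.73 to 0.63 (adjusted p by limma 0.977). Without CD74-/- replicate 3 it was -0.28 (adjusted p by limma 0.603).

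Mbd3 (chromosome 10, 80392539 to 80399550) encodes the NuRD subunit that takes the place of MBD2 in other NuRD complexes and, in mammals, binds methylated CpG weakly. It had 802, 711 and 257 normalized counts in CD74-/- libraries, against 485, 564 and 499.5 in WT libraries. Replicates 1 and 2 of CD74-/- were above all WT libraries and replicate 3 below them, the mirror image of Mbd2. The log2 fold change was 0.03 with a 95% interval of -0.90 to 0.97 (adjusted p by limma 0.988). Without replicate 3 it was 0.55 (unadjusted p 0.0495 by limma, adjusted p 0.259), and the groups then did not overlap, as for 2865 of the 14892 genes in that direction. In that fit 10.3% of all genes were higher at an unadjusted p under 0.05 by limma.

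The ratio of Mbd2 to Mbd3 joined these opposite values. It was 0.817, 0.833 and 6.71 in CD74-/- libraries, against 3.51, 2.93 and 2.47 in WT libraries. Mbd3 thus exceeded Mbd2 in CD74-/- replicates 1 and 2 and in no other library, while replicate 3 had the highest ratio (exact permutation test of log2 ratios, two-sided, p = 0.4). The exons of Mbd3 span 1.87 kb, within the short class above, and those of Mbd2 2.45 kb. The ratio of Mbd2 to Mbd1 was 1.00, 0.750 and 1.47 in CD74-/- libraries, against 1.58, 2.46 and 1.33 in WT libraries, with an overlap (p = 0.2 by the same exact test).

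The promoter window of Mbd3 (250 bases before to 50 bases after its start, chr10:80399482-80399781, minus strand, RefSeq on GRCm38.p6) is shown because CCAAT boxes recur in it, as they do in windows of Dnmt1 and Uhrf1. RefSeq windows were found for 8 of the 10 genes, not for Mbd1 and Mbd2. Capitals mark CCAAT on either strand, found 3 times; 3.37% of all 32851 RefSeq windows of this length hold 3 or more, and 37.4% at least 1. A Dnmt1 window holds 5, another Dnmt1 window 3 and a Uhrf1 window, not the one printed below, 3. In the Dnmt1 and Uhrf1 windows with 3, the stretch CCAATTGG was counted once on each strand. Of the 13 windows of the 8 genes 6 hold CCAAT, beside 37.4% of all windows.
Mbd3: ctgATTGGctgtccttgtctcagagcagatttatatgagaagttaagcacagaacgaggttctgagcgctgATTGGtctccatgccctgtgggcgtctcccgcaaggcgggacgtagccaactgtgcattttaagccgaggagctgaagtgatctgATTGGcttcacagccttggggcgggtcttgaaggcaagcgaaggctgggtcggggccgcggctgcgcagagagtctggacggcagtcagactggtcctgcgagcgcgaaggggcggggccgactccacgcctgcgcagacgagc

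**Figure D2:**
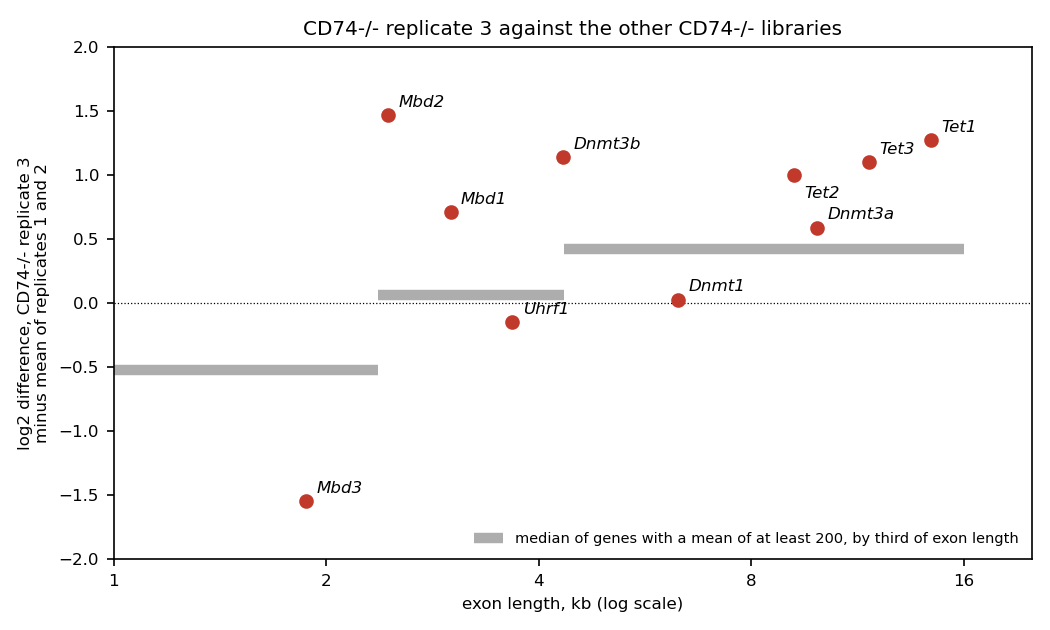
Log2 difference of CD74-/- replicate 3 from the mean of CD74-/- replicates 1 and 2 (vertical axis) against exon length in kb (horizontal, log scale) for the 10 genes, with grey bars at the median of the genes averaging at least 200 normalized counts, for exons of up to 2.37 kb, between, and over 4.34 kb. Mbd2 (1.47) and Mbd3 (-1.55) lie farthest from 0, on opposite sides, and Tet1, Tet2 and Tet3 lie above the bar for long genes (0.42).

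Dnmt3a and Dnmt3b encode the de novo methyltransferases. Dnmt3a (chromosome 12, 3806007 to 3914443) had 675, 620.5 and 973 normalized counts in CD74-/- libraries, against 1272, 1348 and 806 in WT libraries. Only WT replicate 3 was within the CD74-/- range. The log2 fold change was -0.59 ± 0.30 (SE, n = 3 each), with a 95% interval of -1.25 to 0.08, an adjusted p of 0.675 by limma and a p of 0.2 by the exact permutation test. It was -0.82 without WT replicate 3 and -0.78 without CD74-/- replicate 3, with unadjusted p of 0.031 and 0.0211 and adjusted p of 0.848 and 0.187 by limma. In both cases the groups did not overlap, as for 11.8% and 18.7% of all genes lower in CD74-/-. With the exon length trend removed, Dnmt3a was 798, 718 and 798 in CD74-/- libraries, against 1233, 1322 and 756 in WT libraries. The CD74-/- libraries differed less than the WT libraries for this gene before the removal as well (SD of log2 values 0.35 in CD74-/- and 0.41 in WT).

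Dnmt3b (chromosome 2, 153649450 to 153687730) had 811, 658 and 1611 normalized counts in CD74-/- libraries, against 1012, 891 and 1299 in WT libraries. The CD74-/- range enclosed the WT range, with replicates 1 and 2 below it and replicate 3 above (log2 fold change -0.15, 95% interval -0.92 to 0.62, adjusted p by limma 0.936). Without replicate 3 the log2 fold change was -0.53 (unadjusted p 0.0638, adjusted p 0.287 by limma), and the groups did not overlap, as for 18.7% of all genes lower in CD74-/-. The ratio of Dnmt3a to Dnmt3b was 0.832, 0.943 and 0.604 in CD74-/- libraries, against 1.26, 1.51 and 0.621 in WT libraries. By normalized count, not scaled by length, Dnmt3a exceeded Dnmt3b in 2 WT libraries and in no CD74-/- library (exact permutation test, two-sided, p = 0.4). Per kb of exon Dnmt3a was below Dnmt3b in every library. That ratio was 0.36, 0.41 and 0.26 in CD74-/- libraries, against 0.55, 0.66 and 0.27 in WT libraries. Of the 50-base words of Dnmt3b transcripts 9.81% also occur in other genes and its start overlaps the antisense gene Dnmt3bos (25.2 normalized counts on average), which these libraries cannot separate by strand.

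Dnmt1 (chromosome 9, 20907209 to 20959888), which copies methylation at replication, had 1339, 752 and 1023 normalized counts in CD74-/- libraries, against 1332, 1018 and 999 in WT libraries. The log2 fold change was -0.13 with a 95% interval of -0.76 to 0.49 (adjusted p by limma 0.927), and it was -0.14 without CD74-/- replicate 3. Uhrf1 (chromosome 17, 56303321 to 56323486), which brings DNMT1 to hemimethylated CpG sites, had 641, 141 and 272 normalized counts in CD74-/- libraries, against 791, 255 and 352 in WT libraries. The libraries of each genotype differed more for Uhrf1 than for any other of the 10 genes, with a ratio of highest to lowest of 4.55 in CD74-/- and 3.10 in WT, and its log2 fold change of -0.51 had the widest 95% interval (-1.80 to 0.78, adjusted p by limma 0.839). Without CD74-/- replicate 3 it was -0.46. Of the 50-base words of Uhrf1 transcripts 15.4% also occur in other genes, the largest share among the 10, so that its counts may be incomplete.

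Replicate 1 of each genotype had the highest Uhrf1 and the highest Dnmt1 of its genotype. These 2 libraries were also highest in S phase and mitosis genes: the summed normalized counts of 24 such genes were 30980.0, 15630.0 and 14880.0 in CD74-/- libraries, against 32540.0, 15850.0 and 17440.0 in WT libraries. Set against the mean log2 level of these 24 genes, Uhrf1 was lower by 0.40, 1.21 and 0.31 (log2) in CD74-/- libraries and by 0.24, 0.70 and 0.41 in WT libraries (difference of means -0.18, exact permutation test, two-sided, p = 0.7). Dnmt1 was above that mean by 0.67, 1.20 and 1.61 in CD74-/- libraries and by 0.51, 1.29 and 1.09 in WT libraries (difference 0.19, p = 0.6 by the same exact test). None of the 24 passed the adjusted test and their median log2 fold change was -0.14, with Rrm2, a subunit of ribonucleotide reductase, having the smallest unadjusted p (627, 22.3 and 45.1 in CD74-/- libraries, against 863, 280.4 and 320 in WT libraries).

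Dnmt1 and Uhrf1 each have a promoter window with a word of the E2F family, the factors that drive S phase genes. The words searched on both strands were TTTCCCGC, TTTCGCGC, TTTGCCGC and TTTGGCGC, and 2.26% of all windows hold at least 1 of them. In the windows printed here (Uhrf1 chr17:56304063-56304362, plus strand, 1 of 2 for the gene, and Dnmt1 chr9:20952574-20952873, minus strand, 1 of 3) capitals mark these words and CCAAT on either strand. The Uhrf1 window holds 1 E2F word and the Dnmt1 window 2, and 0.1% of all windows hold 2 or more. The other windows of the 8 genes hold 0. The letters are a description of the sequence and show no binding.
Uhrf1: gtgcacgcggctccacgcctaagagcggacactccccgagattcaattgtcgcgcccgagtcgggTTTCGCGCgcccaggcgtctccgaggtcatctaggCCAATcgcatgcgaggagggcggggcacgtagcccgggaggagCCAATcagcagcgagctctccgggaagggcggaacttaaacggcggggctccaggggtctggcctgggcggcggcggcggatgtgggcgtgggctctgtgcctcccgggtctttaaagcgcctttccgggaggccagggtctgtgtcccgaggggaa
Dnmt1: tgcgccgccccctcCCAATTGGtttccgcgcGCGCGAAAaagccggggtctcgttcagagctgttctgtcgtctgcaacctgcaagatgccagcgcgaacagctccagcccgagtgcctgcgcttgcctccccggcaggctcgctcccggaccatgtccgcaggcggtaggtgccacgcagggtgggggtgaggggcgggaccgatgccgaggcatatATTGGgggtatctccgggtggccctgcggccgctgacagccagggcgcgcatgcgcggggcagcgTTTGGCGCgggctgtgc

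**Figure D3:**
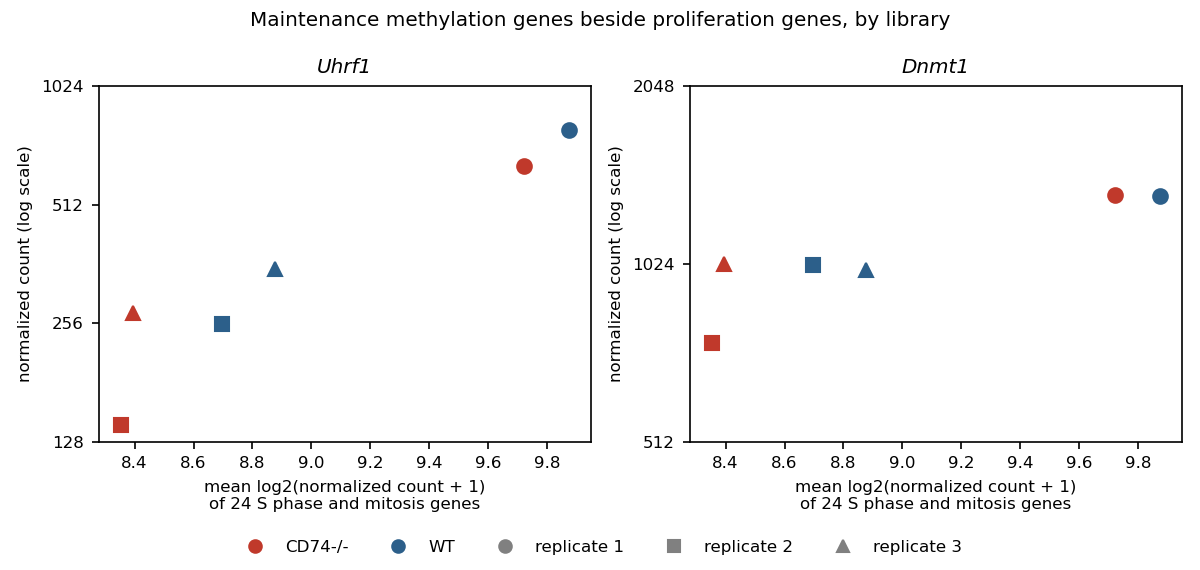
Normalized counts of Uhrf1 and Dnmt1 (vertical axes, log scale) against the mean log2(normalized count + 1) of 24 S phase and mitosis genes (horizontal), by library, with CD74-/- in red, WT in blue and a marker for each replicate. Replicate 1 of each genotype lies at the upper right in both panels, with 641 and 791 normalized counts of Uhrf1 in CD74-/- and WT.

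The TET genes encode the dioxygenases that turn methylcytosine into hydroxymethylcytosine. Tet1 (chromosome 10, 62804570 to 62908996) had 463, 1098 and 1722 normalized counts in CD74-/- libraries, against 1300.3, 800.1 and 1242 in WT libraries. Tet2 (chromosome 3, 133463679 to 133545139) had 331, 268 and 595 in CD74-/- libraries, against 695, 398 and 450.4 in WT libraries. Tet3 (chromosome 6, 83362373 to 83459084) had 1241, 807 and 2149.8 in CD74-/- libraries, against 1691, 1256 and 1199 in WT libraries. For Tet2 the CD74-/- replicates 1 and 2 were below all WT libraries, whereas for Tet1 and Tet3 the CD74-/- values extended past the WT values at both ends. The log2 fold changes were -0.19, -0.41 and -0.08 for Tet1, Tet2 and Tet3, with 95% intervals of -1.16 to 0.78, -1.26 to 0.44 and -0.85 to 0.69 and adjusted p of 0.936, 0.794 and 0.965 by limma.

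The exons of the TET genes are among the longest of the 10 (14.4, 9.2 and 11.7 kb). In CD74-/- replicate 3 they stood 1.27, 1.00 and 1.10 log2 units above the mean of the other 2 CD74-/- libraries, where long genes stood 0.42 above. Without that library their log2 fold changes were -0.61, -0.74 and -0.45. Tet2 did not overlap between the genotypes in that comparison (unadjusted p 0.0557, adjusted p 0.27 by limma), where 18.7% of all genes lay below WT without overlap. With the exon length trend removed, the CD74-/- values of Tet3 were 1476.5, 929.9 and 1731, against 1678, 1232 and 1116 in WT libraries, a log2 fold change of 0.01. Tet1 made up 1.40, 4.10 and 2.89 times the normalized count of Tet2 in CD74-/- libraries and 1.87, 2.01 and 2.76 times in WT libraries, so that this ratio covered a wider range in CD74-/-.

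The CD74-/- libraries differed among themselves more than the WT libraries did for 9 of the 10 genes, Dnmt3a being the exception. The median SD of the log2 values was 0.69 in CD74-/- and 0.31 in WT. Over those 8487 well-read genes it was 0.40 in CD74-/- and 0.28 in WT, and the SD was larger in CD74-/- for 65.8% of them. After removal of the exon length trend the median SD of the 10 genes was 0.50 in CD74-/- and 0.32 in WT, and it was larger in CD74-/- for 8 of them.

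**Figure D4:**
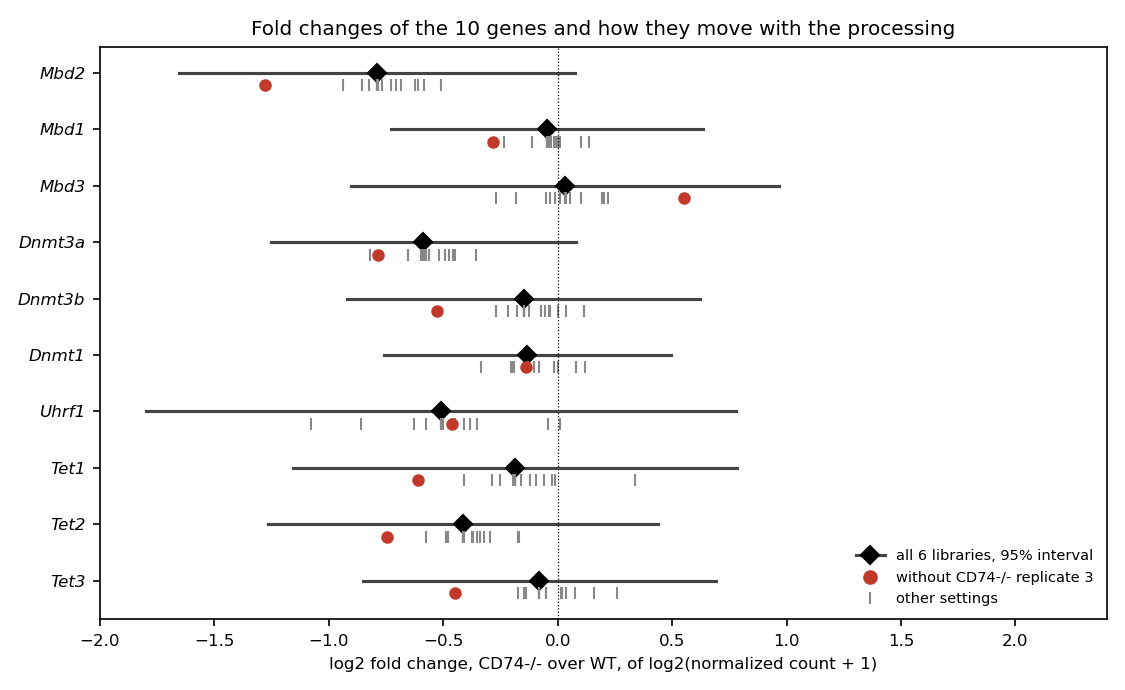
Log2 fold change of CD74-/- over WT (horizontal axis) for the 10 genes, with diamonds and lines for all 6 libraries and the 95% interval, red points for the fit without CD74-/- replicate 3 and grey ticks for the other settings. Each interval includes 0, and without CD74-/- replicate 3 Mbd2 moved to -1.28 and Mbd3 to 0.55.

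Levels can be compared between genes per kb of exon. In WT libraries Mbd2 was the highest of the 10 with 624.5 normalized counts per kb (range 504.5 to 694), above 87.3% of tested genes. Its range did not overlap that of the next genes in order, Mbd1 (297), Mbd3 (276) and Dnmt3b (247), whose own ranges overlapped each other. Dnmt1 followed (177), then Uhrf1, Tet3 and Dnmt3a (127, 118 and 115), Tet1 (77.5) and Tet2 (55.9), and from Dnmt3b on the ranges of neighbours in this order overlapped in each case. In CD74-/- libraries Mbd2 again had the highest mean, 405 per kb, but its range of 242 to 705 overlapped those of Mbd3 (315.5), Mbd1 (291) and Dnmt3b (237), and Mbd3 was first in replicates 1 and 2. The lowest mean was again that of Tet2 (43.2), beside a median of all tested genes of 84.1 per kb in CD74-/- and 89.4 in WT.

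**Figure D5:**
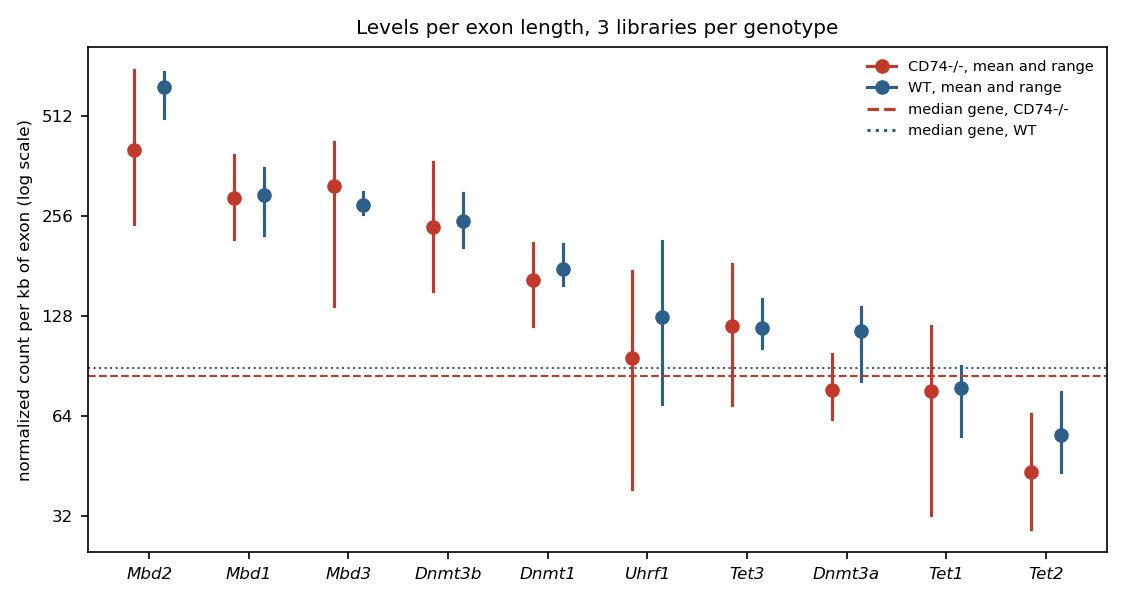
Normalized counts per kb of exon (vertical axis, log scale) of the 10 genes, ordered by the WT mean, as mean and range over 3 CD74-/- (red, left) and 3 WT (blue, right) libraries, with lines at the median of all tested genes (84.1 in CD74-/- and 89.4 in WT). Mbd2 is highest in both genotypes, and its WT range (504.5 to 694) is clear of every other gene.

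The genes whose pattern over the 6 libraries was nearest to Mbd2 (root mean square difference of centred log2 values, 11630 genes compared) were Ptpn11 (0.09), Trappc11 (0.11), Eif2s3x (0.12), Ttyh3 (0.15) and Irf2bp1 (0.15). Ptpn11, which encodes the phosphatase SHP2, had 265, 236 and 662 normalized counts in CD74-/- libraries, against 625, 559 and 470.2 in WT libraries. For each of these 5 genes CD74-/- replicates 1 and 2 were below the other 4 libraries, as for Mbd2. This follows from how the 5 genes were picked and is no separate observation. Among the methylation genes Dnmt3a was nearest to Mbd2 (0.33, rank 244) and Mbd3 farthest (1.10, rank 9585). The points share libraries and depth, and no test was made.

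The subunits of NuRD, the chromatin remodelling and deacetylase complex that MBD2 or MBD3 joins, gave 0 called genes of the 12 tested and a median log2 fold change of -0.07. Rbbp7, a histone chaperone subunit, had 9587, 10315.4 and 6160.5 normalized counts in CD74-/- libraries, against 3629, 5772 and 5776 in WT libraries, without overlap (log2 fold change 0.78, unadjusted p 0.0148 and adjusted p 0.556 by limma), although 11.2% of its 50-base words occur in other genes. Chd4, the ATPase of the complex, had 2174, 1624 and 1913 in CD74-/- libraries, against 3101, 2418 and 2503 in WT libraries, also without overlap (-0.49, unadjusted p 0.0493 and adjusted p 0.644 by limma). Over all genes 5.35% lay above WT without overlap and 7.47% below it. Hdac2, a deacetylase subunit, had 5876, 4859.6 and 3216 in CD74-/- libraries, against 2918, 3466 and 2981 in WT libraries, where CD74-/- replicate 3 was within the WT range. Without that library its groups did not overlap and its log2 fold change was 0.78 (adjusted p by limma 0.0969). That of Rbbp7 was 1.01 (adjusted p by limma 0.0982). Chd4 (-0.50) and Cdk2ap1, also listed (-1.305), then lay below WT without overlap, as did 18.7% of all genes (adjusted p by limma 0.2385 and 0.2234). In that fit 4 of the 12 subunits were higher and 3 lower at an unadjusted p under 0.05 by limma. Over all genes 10.3% were higher and 8.89% lower. The median of the 12 was -0.24 and 0 were called. The 7 other listed genes of the methyl-CpG binding families, not all of them known to bind methylated CpG, include Mbd4 and Zbtb33 (Kaiso). They had 0 called genes, 0 at an unadjusted p under 0.05 by limma and a median of 0.11.

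Among 11 tested partners of the methyltransferases and UHRF1, 0 were called by limma and 0 had an unadjusted p under 0.05. Usp7, the deubiquitinase that stabilizes DNMT1 and UHRF1, had 1312, 1467 and 1747 normalized counts in CD74-/- libraries, against 2109, 1887 and 1924 in WT libraries, and Ehmt2, the H3K9 methyltransferase G9a, had 591, 717 and 659 in CD74-/- libraries, against 847, 868 and 889 in WT libraries. Both lay below WT without overlap, as did 7.47% of all genes, with log2 fold changes of -0.40 and -0.41 and adjusted p of 0.688 and 0.71 by limma. Dnmt3l, the cofactor of DNMT3A and DNMT3B in germ cells, was near 0 (0.98, 15.2 and 0 normalized counts in CD74-/- libraries, against 20.3, 0 and 0 in WT libraries).

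Of 16 tested genes of active demethylation and TET regulation, 0 were called by limma, 12 had negative fold changes and the median was -0.23. Tdg, the glycosylase that excises the products of TET oxidation, had 4.89, 0 and 7.17 normalized counts in CD74-/- libraries, against 109, 32.3 and 53.0 in WT libraries. The groups did not overlap (unadjusted p 0.00606, adjusted p 0.504 by limma), as for 7.47% of all genes lower in CD74-/-. Of the 50-base words of its transcripts 41.2% occur in other genes, so that its counts may be incomplete. Gadd45g, a stress gene linked to active demethylation, had 47.0, 222 and 127 in CD74-/- libraries, against 251.5, 288 and 286 in WT libraries (log2 fold change -1.31, unadjusted p 0.0386 and adjusted p 0.618 by limma). Idh2, whose enzyme makes the 2-oxoglutarate that TET proteins use, had 4244, 4130.6 and 1545 in CD74-/- libraries, against 1741, 1964 and 1777 in WT libraries, with CD74-/- replicate 3 below all WT libraries. Without that library Idh2 was called higher in CD74-/- (log2 fold change 1.20, adjusted p 0.0448 by limma), the only called gene of the 16, whereas with all libraries its adjusted p was 0.668 by limma.

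The supply of S-adenosylmethionine, the methyl donor, was covered by 17 tested genes of folate and methionine metabolism, of which 0 were called, with a median of -0.05. Mat2b, the regulatory subunit of methionine adenosyltransferase, had 6529, 6195 and 4504 normalized counts in CD74-/- libraries, against 3338, 3918 and 3242 in WT libraries. It lay above WT without overlap, as did 5.35% of all genes (log2 fold change 0.70, unadjusted p 0.00806 and adjusted p 0.517 by limma). Without CD74-/- replicate 3 it was 0.87 (adjusted p 0.0845 by limma). Its catalytic partner Mat2a had 3541, 3399 and 3866 in CD74-/- libraries, against 3579.9, 3643 and 3957 in WT libraries, a log2 fold change of -0.05.

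Germline genes that promoter methylation keeps silent in somatic cells were covered by 3 tested genes, with 0 called; the others of the 20 listed were not tested here. Ddx4 was read in every library, with 866, 1109 and 536 normalized counts in CD74-/-, against 753, 860.1 and 398 in WT. Its groups overlapped with all libraries but not without CD74-/- replicate 3 (log2 fold change 0.62, adjusted p 0.374 by limma). Brdt was also read in every library, with 109, 314 and 166 in CD74-/-, against 101, 223 and 287 in WT (log2 fold change -0.06). RNA of Ddx4 and Brdt was thus present in both genotypes, and methylation of these genes was not measured. Dazl had 2.93, 73.0 and 0 in CD74-/- libraries and 0 in all WT libraries, so that its reads came mainly from CD74-/- replicate 2.

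Since Mbd2 and Mbd1 lie on the chromosome of the deleted gene, the 60 tested genes from Cd74 to Mbd1 were looked at together. Mbd2 and Mbd1 are among them. None of the 60 was called by limma, 30 had negative fold changes and the median was 0.02. The smallest unadjusted p belonged to Ptpn2 (log2 fold change 0.70), 1500015A07Rik (-2.49), Stard6 (-4.52) and Pcyox1l (-1.89). Their adjusted p by limma ran from 0.504 to 0.568. Of these, 1500015A07Rik and Pcyox1l start nearest to Cd74, at 61.73 and 61.7 Mb, where Cd74 ends at 60812652. The median covers the whole stretch, and dependence on the distance from Cd74 was not tested. DESeq2 called 1 of the 60, beside 0.756% of all genes. At an unadjusted p under 0.05 by limma 4 were higher and 4 lower in CD74-/- (6.67% each, beside 3.14% higher and 4.6% lower over all genes). Without CD74-/- replicate 3 none was called by limma either, and the median was again 0.02. At an unadjusted p under 0.05 by limma 5 of the 60 were then higher and 9 lower, beside 10.3% higher and 8.89% lower over all genes.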

How the data were processed

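SMART-Seq v4 libraries, which do not keep the strand, were read single-end. The authors trimmed reads with cutadapt, aligned them with STAR (2.4.2a in the submitters' processing notes) to GRCm38 with Ensembl release 92, counted them with htseq-count and divided by DESeq2 size factors; the deposited signal is this normalized count. Reads were recovered from the step size of each library, since each of the 101059 nonzero values was a whole number of steps to within 0.006 normalized counts.

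The main test was limma-trend, fitted to log2(normalized count + 1) of 14892 genes with a mean of at least 10, unpaired, with Benjamini-Hochberg adjustment over all of them and a threshold of 0.05. Alternatives were other pseudocounts and filters, the same total per library, the replicate block, each library left out, and edgeR, DESeq2 (all genes with reads) and limma-voom on recovered reads; removal of exon length and GC trends was added after seeing the data. Limma was the test planned for normalized counts, the kind deposited, and edgeR was planned as the main test only in case raw counts were found. Genes were located with GENCODE vM21, and exon length is the union of exons.

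The 10 genes and all gene lists were chosen with earlier results of these data known. Up to 4 genes of each list could be named, by smallest unadjusted p; Mat2a, Dnmt3l, Kit, Ly6a, Procr, Mecom, Hlf and Car2 fall outside this and were chosen after their values were seen. Python 3.11.15 and R 4.3.3 were used, with DESeq2 1.42.0, edgeR 4.0.16 and limma 3.58.1. The fits were tested on simulated data. The second deposited sheet was not used.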

Additional observations from a re-analysis of the deposited data

How the results depend on the processing

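None of the 10 genes passed the adjusted threshold in any of the 17 alternatives. Of 170 alternative fold changes 147 kept their direction. The 23 that turned belong to 7 genes, not to Mbd2, Dnmt3a or Tet2. Leaving out 1 library at a time gave log2 fold changes of -1.28 to -0.51 for Mbd2, -0.28 to 0.14 for Mbd1, -0.27 to 0.55 for Mbd3, -0.82 to -0.45 for Dnmt3a, -0.53 to 0.12 for Dnmt3b, -0.335 to 0.081 for Dnmt1, -1.08 to 0.01 for Uhrf1, -0.61 to 0.34 for Tet1, -0.74 to -0.17 for Tet2 and -0.45 to 0.26 for Tet3. The same total per library turned Mbd3 to -0.032. For Tet3, edgeR gave 0.035 and DESeq2 0.018. Removal of the exon length trend, chosen after seeing the data, turned Mbd3 to -0.052 and Tet3 to 0.014, and removal of both exon length and GC trends turned Mbd1 to 0.009, Dnmt3b to 0.038, Dnmt1 to 0.118 and Tet3 to 0.16. The number of the 10 genes lying below WT without overlap ranged from 0 to 4 with 1 library left out, being 4 without CD74-/- replicate 3 (Mbd2, Dnmt3a, Dnmt3b and Tet2, beside 18.7% of all genes) and 1 without WT replicate 3 (Dnmt3a, beside 11.8%); above WT it ranged from 0 to 1 (Mbd3 without CD74-/- replicate 3, beside 2865 of 14892 genes). Over all genes 13 were called by limma, 6 by limma-voom and 148 by DESeq2, and 7 to 33 with 1 library left out (33 without CD74-/- replicate 1, 29 without CD74-/- replicate 3 and 7 without WT replicate 1); the cause was not tested. With the replicate block 27 were called and none of the 10 genes. Libraries with the same number had deviations that correlated by 0.12, 0.07 and 0.02, so that the numbers were not taken to pair the samples. Counting error of the reads alone was at most 8.48%, and the intervals rest on the spread between libraries.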
